A study of Mus musculus with 11 samples.

Results

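The unfolded protein response and the chaperones of the endoplasmic reticulum (ER) were examined in peritoneal PMNs (neutrophils) of WT and FOXO3 KO mice through 38 genes, of 54164 genes with a level in each library. The genes were taken by symbol as members of the PERK/ATF4 branch (9 genes), the IRE1/XBP1 branch (12 genes) or the ATF6 branch (17 genes). All 38 had a mean of at least 1 TPM, the minimum for testing, which 12195 genes passed. TPM is a transcript level scaled for gene length and library size. PMNs came from C57BL/6 mice of both sexes aged 6 to 8 weeks, homozygous WT (n = 5 libraries) or with a germline FOXO3 knock-out (FOXO3 KO, n = 6 libraries). All mice, WT included, received 2 intraperitoneal injections of casein (1 mL each) on consecutive days, and peritoneal cells were harvested 3 h after the later injection and enriched on a density gradient. The purity of the PMNs was checked by Ly6G staining, and the germline knock-out left other cells of the mice without FOXO3 as well. Total RNA was sequenced in paired-end libraries.

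The unfolded protein response is the set of signals by which a cell matches the folding capacity of its ER to the load of secreted and membrane proteins. Its sensors span the ER membrane. PERK phosphorylates the translation factor eIF2-alpha, which lowers general translation and favours translation of ATF4. IRE1 cuts the Xbp1 mRNA so that it can be joined into the form that encodes the active XBP1 factor, and ATF6 moves to the Golgi, where it is cleaved into a transcription factor. Many target genes answer to more than 1 branch, so that the assignment of a gene to a branch is a convention. PMNs make most of their granule proteins during maturation in the bone marrow, and mature PMNs hold little ER. Gene-level TPM measures neither the splicing of Xbp1, nor the phosphorylation of a sensor, nor the cleavage of ATF6.

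Foxo3, the deleted gene, was at 9.30 ± 1.75 TPM (SD, n = 5) in WT and at 2.44 ± 1.28 TPM (SD, n = 6) in FOXO3 KO libraries, with no overlap between 7.61 to 11.7 TPM and 0.844 to 4.27 TPM. The 38 genes together made up 0.429% to 0.705% of the listed TPM of a library, and the totals of the libraries were 935140 to 952238 TPM. The table gives no counts per library, so the depth behind each TPM value is unknown. By the headers of the deposited file, 6 libraries carry the numbers 1 to 3 (3 WT and 3 FOXO3 KO, called the first series here) and 5 carry numbers written with a leading 0 (WT 03 and 08, FOXO3 KO 05, 06 and 09, called the second series). The sources do not say what separates them, but the first principal component of all genes tested, with 44.9% of the variance, parted the series, so the genotypes were also compared within each series. The 12 neutrophil markers, S100a8 and S100a9 among them, summed to 114280 to 269288 TPM in each library, whereas macrophage markers (11 genes) summed to 1598 to 5954 TPM and B cell markers (12 genes) to 74.9 to 5596 TPM. In bulk RNA, fewer cells of a type and less RNA per cell cannot be told apart.

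The promoters of many ER chaperone genes carry the ER stress response element (ERSE), CCAAT followed after 9 bases by CCACG, which NF-Y and ATF6 bind together. Promoters from 250 bases before to 50 after the start were read from RefSeq (GRCm38.p6) for 33 of the 38 genes, and Atf6, Hyou1, Manf, Derl1 and Ppp1r15b were not among those matched. The starts are those of RefSeq and can differ from the gene positions given below, which follow GENCODE M21. The Hspa5 element, for example, lies before the RefSeq start but within the listed span of the gene. Both strands were searched. The ERSE occurred in 9 of the 33 promoters, namely 7 of 14 of the ATF6 branch (Hspa5, Hsp90b1, Calr, Canx, Creld2, Syvn1 and Derl3), 2 of 11 of the IRE1/XBP1 branch (Pdia6 and Dnajc3) and 0 of 8 of the PERK/ATF4 branch, against 0.137% of the 27025 genes of the table. Hsp90b1 had a pair of matches. The following windows show the element in the chaperone genes with the highest levels and in Derl3 and Dnajc3, which differed between the series. Capitals mark the element, which reads CGTGG, 9 bases, ATTGG where it lies on the strand opposite to the gene.
Hspa5 (chr2:34772010-34772058, plus strand, element 65 to 47 bases before the start): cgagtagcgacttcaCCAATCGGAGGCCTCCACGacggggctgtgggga
Hsp90b1, farther element (chr10:86705623-86705671, minus strand, 212 to 194 bases before the start): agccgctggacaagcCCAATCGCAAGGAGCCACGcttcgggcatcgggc
Hsp90b1, nearer element (chr10:86705518-86705566, minus strand, 107 to 89 bases before the start): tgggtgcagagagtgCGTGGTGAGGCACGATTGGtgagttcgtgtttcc
Calr (chr8:84847060-84847108, minus strand, 162 to 144 bases before the start): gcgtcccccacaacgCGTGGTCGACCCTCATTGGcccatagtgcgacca
Derl3 (chr10:75893227-75893275, plus strand, 156 to 138 bases before the start): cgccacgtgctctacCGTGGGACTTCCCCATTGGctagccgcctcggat
Dnajc3 (chr14:118937812-118937860, plus strand, 105 to 87 bases before the start): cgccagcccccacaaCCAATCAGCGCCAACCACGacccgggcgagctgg

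The related element ERSE-II (ATTGG, 1 base, CCACG) occurred in Herpud1 and in Dnajb11, where it lies after the start, against 0.0444% of all genes. CCACG alone, which is part of both elements, occurred in 26 of the 33 promoters against 35.5% of all genes. The letters TGACGTGG, a binding core of XBP1 and ATF6, were in 0 of the 33 windows and in 0.714% of all genes. TGATGNAA, the composite C/EBP-ATF element through which ATF4 acts, occurred in 4 of 8 promoters of the PERK/ATF4 branch (Asns, Atf3, Chac1 and, after the start, Trib3), in Herpud1 of the ATF6 branch and in none of 11 of the IRE1/XBP1 branch, against 4.51% of all genes. The windows below show this element for the ATF4 targets, and both elements of Herpud1, which holds one of each kind. It reads TTNCATCA on the strand opposite to the gene. A match of letters is a description of the promoter and no measurement of binding.
Asns (chr6:7693210-7693247, minus strand, 23 to 16 bases before the start): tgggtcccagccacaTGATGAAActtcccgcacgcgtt
Atf3 (chr1:191183421-191183458, minus strand, 110 to 103 bases before the start): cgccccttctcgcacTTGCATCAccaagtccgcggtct
Chac1 (chr2:119351034-119351071, plus strand, 193 to 186 bases before the start): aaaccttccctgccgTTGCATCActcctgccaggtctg
Herpud1, C/EBP-ATF (chr8:94386302-94386339, plus strand, 112 to 105 bases before the start): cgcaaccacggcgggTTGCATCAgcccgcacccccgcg
Herpud1, ERSE-II (chr8:94386362-94386402, plus strand, 52 to 42 bases before the start): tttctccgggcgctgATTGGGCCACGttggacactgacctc

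In WT PMNs the ER chaperones had the highest levels of the set, and the sensors were among the lowest. Hspa5 (BiP, the main ER chaperone of the HSP70 family, which also holds the sensors inactive; chr2:34771970-34777547, plus strand) had the highest level, 913 ± 157 TPM (SD, n = 5), and ranked 131 of the 12195 genes by WT mean. Calr (calreticulin, a calcium-binding lectin chaperone) followed with 695 ± 201 TPM. P4hb (protein disulfide isomerase, 389.9 ± 63.9 TPM) and Hsp90b1 (GRP94, the ER member of the HSP90 family, 364 ± 108 TPM) came next, and their difference was smaller than the SD of either. In all, 14 of the 38 genes had a WT mean over 100 TPM and 6 had one under 10 TPM.

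Among the other folding genes of the ATF6 branch, Pdia3 (ERp57, the disulfide isomerase that works with calreticulin) was at 245 ± 71.2 TPM in WT, Manf (a secreted ER stress protein) at 207 ± 42.6 TPM and Canx (calnexin, the membrane-bound lectin chaperone) at 167 ± 50.7 TPM. Pdia4 (90.6 ± 20.7 TPM), Hyou1 (GRP170, a nucleotide exchange factor of BiP, 64.3 ± 6.29 TPM), Creld2 (a small disulfide isomerase, 65.7 ± 13.4 TPM) and Sdf2l1 (a BiP cochaperone, 50.6 ± 12.8 TPM) were lower. The ER-associated degradation genes, which return misfolded proteins to the cytosol, spanned 124 ± 24.6 TPM for Edem1 (a lectin for trimmed glycans) and 98.4 ± 8.51 TPM for Herpud1 (a scaffold of the degradation complex) down to 4.55 ± 2.63 TPM for Derl3. Between them lay Derl1 (65.6 ± 11.3 TPM), Os9 (60.9 ± 8.24 TPM), Derl2 (33.8 ± 11.2 TPM), Sel1l (32.2 ± 6.35 TPM), Syvn1 (27.1 ± 2.66 TPM) and Edem2 (21.5 ± 5.76 TPM). Syvn1 (HRD1) is the ubiquitin ligase of this complex and Sel1l its adaptor. Derl3, which in other mouse tissues is high in secretory cells, was the most variable gene of the set, with 37.6 times between its lowest and highest library, against 1.46 times for Herpud1, the least variable.

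The sensors were all low in WT PMNs. Ern1 (IRE1-alpha; chr11:106394650-106487852, minus strand) had 5.85, 4.72, 4.81, 5.35 and 2.46 TPM in WT 1, 2, 3, 03 and 08. Eif2ak3 (PERK; chr6:70844515-70905245, plus strand) had 5.14, 5.20, 4.45, 8.12 and 6.17 TPM in the same order. Atf6 (chr1:170704674-170867771, minus strand) had 11.1, 7.85, 8.78, 13.1 and 10.3 TPM. Ern1 and Eif2ak3 therefore overlapped in their WT levels (4.64 ± 1.30 and 5.81 ± 1.43 TPM), whereas the Atf6 mean, 10.2 ± 2.05 TPM, lay above both. The factors downstream were far more abundant than their sensors: Atf4 was at 246 ± 39.3 TPM, Xbp1 at 172 ± 29.6 TPM, Atf3 at 146 ± 19.4 TPM and Ddit3 (CHOP, a factor of prolonged stress) at 67.8 ± 18.01 TPM.

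Within the PERK/ATF4 branch the levels fell into separate tiers. Ppp1r15a (GADD34, the stress-induced subunit that brings a phosphatase to eIF2-alpha) was at 254 ± 61.9 TPM in WT, close to Atf4, and its constitutive relative Ppp1r15b was at 72.8 ± 18.6 TPM. The ATF4 targets Asns (asparagine synthetase, 9.16 ± 5.55 TPM), Chac1 (a glutathione-degrading enzyme, 1.68 ± 0.80 TPM) and Trib3 (a pseudokinase, 1.53 ± 0.41 TPM) were low, and Chac1 and Trib3 did not differ beyond their SD. In the IRE1/XBP1 branch, Pdia6 (a disulfide isomerase that acts on IRE1) and Sec61b (a subunit of the translocation channel) had nearly equal WT means of 207 ± 62.9 and 207 ± 42.6 TPM. The J-domain cochaperones of BiP followed in the order Dnajb11 (84.4 ± 20.4 TPM), Dnajb9 (47.1 ± 14.4 TPM) and Dnajc3 (p58IPK, 20.4 ± 6.34 TPM). Ssr1, a subunit of the translocon-associated complex, was at 35.9 ± 9.02 TPM.

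**Figure D1:**
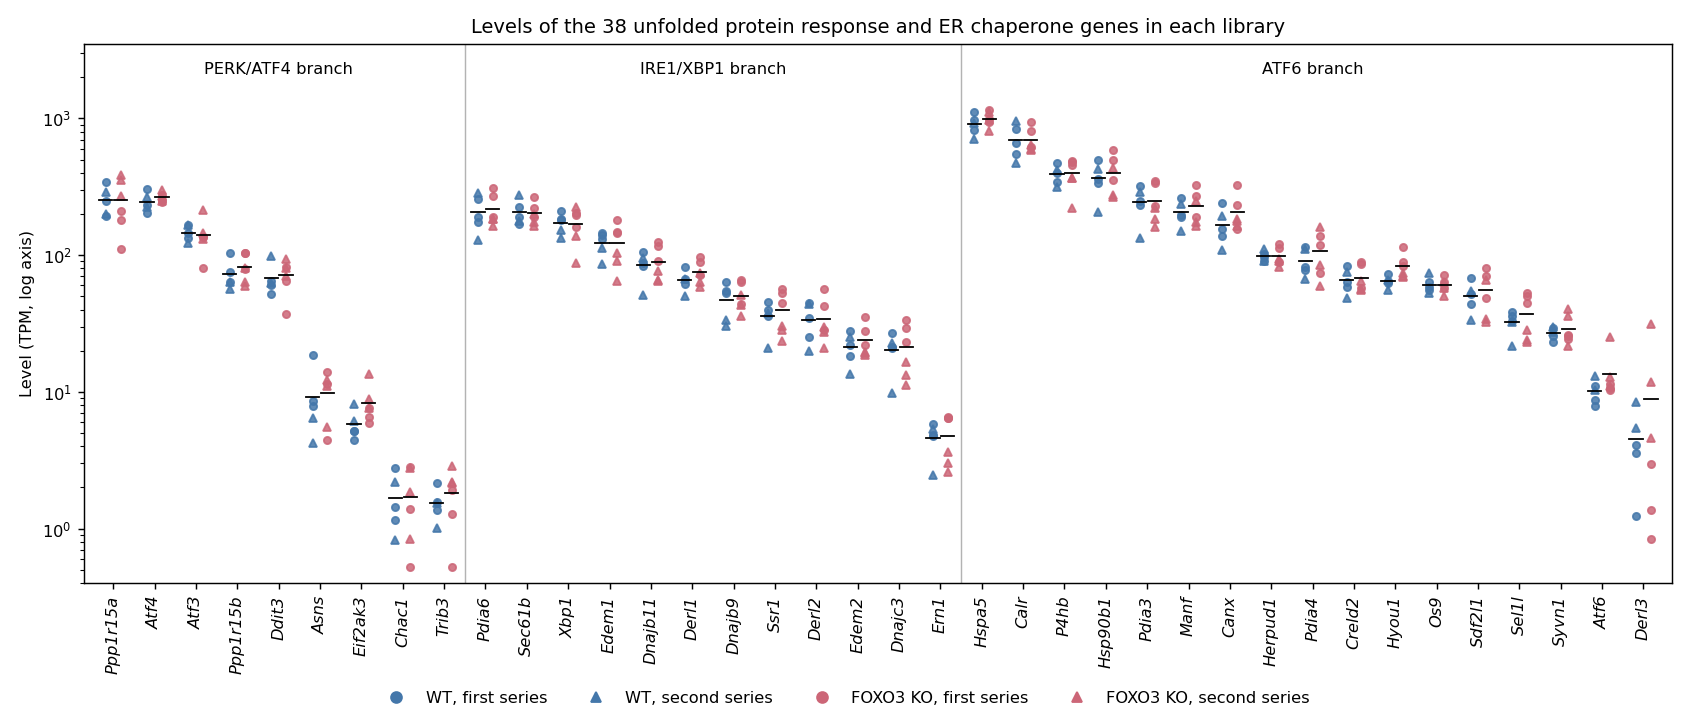
Level in TPM (log axis) of each of the 38 genes in each library, by branch and, within a branch, in order of the WT mean. Points are libraries (blue WT, red FOXO3 KO, circles for the first series, triangles for the second) and black bars are group means. Hspa5 is highest, at 706 to 1146 TPM over all libraries, and the WT and FOXO3 KO libraries overlap for every gene.

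FOXO3 KO and WT PMNs were compared for transcriptional changes with FOXO3 deficiency, read here for the 38 genes. The study reported genes both higher and lower in FOXO3 KO PMNs from its own comparison. No gene of the set was called (limma on log2(TPM + 1), Benjamini-Hochberg FDR < 0.05 with a log2 fold change over 0.5 in size): 0 of 38, and 0% of the 12195 genes tested. The smallest FDR of any gene tested was 0.49. Foxo3, the deleted gene, was therefore not called either, although its levels did not overlap between the genotypes. A count of 0 in this fit thus does not show that the genes were unchanged. At an unadjusted p under 0.05 there were 0 of 38 genes, beside 2.11% of all genes tested (257 genes), and WT and FOXO3 KO libraries were free of overlap for 0 of 38, beside 0.131% of all genes (16 genes). The log2 fold changes (FOXO3 KO minus WT) ran from -0.11 (Atf3) to 0.43 (Eif2ak3), with standard errors of 0.14 to 0.67, and 33 of 38 were smaller than their standard error. The median of all genes tested was itself 0.11, and against it 17 of the 38 genes lay above and 21 below. Quantile normalization brought that median down by 0.10, to 0.01, and left 20 of the 38 fold changes above 0 and 18 below. Fold changes on this scale understate those of genes with few TPM, such as Chac1 and Trib3.

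Chaperones of the ER had overlapping levels in the genotypes. Hspa5 had 1121, 827, 977, 933 and 706 TPM in WT 1, 2, 3, 03 and 08, and 808, 979.8 and 1146 TPM as the lowest, median and highest of the FOXO3 KO libraries. WT 08 was the lowest library and the others of both genotypes mixed, with a log2 fold change of 0.13 (95% interval -0.22 to 0.49). Hsp90b1 had a fold change of 0.14 (standard error 0.27) and Calr of 0.03 (standard error 0.22). The disulfide isomerases were as close, at 0.17 (Pdia4), 0.08 (Pdia6), 0.01 (Pdia3) and -0.01 (P4hb). Canx, at 0.30 (standard error 0.24), was 206 ± 63.8 TPM in FOXO3 KO against 167 ± 50.7 TPM in WT, with the highest value, 323 TPM, in FOXO3 KO 1.

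Hyou1 (chr9:44379490-44392369, plus strand) and Eif2ak3 had the smallest unadjusted p-values of the set and are described for that reason, having been picked after the values were seen. Hyou1 had 65.0, 62.8, 72.6, 66.1 and 55.2 TPM in WT 1, 2, 3, 03 and 08, and 68.8, 78.4 and 115 TPM as the lowest, median and highest of FOXO3 KO. WT 3 lay above the lowest FOXO3 KO libraries, and the other WT libraries lay below all FOXO3 KO libraries. The log2 fold change was 0.35 (standard error 0.16; limma, Benjamini-Hochberg FDR = 0.99). Eif2ak3 was at 5.81 ± 1.43 TPM in WT and at 5.88, 7.61 and 13.5 TPM as the lowest, median and highest of FOXO3 KO, and WT 03 and WT 08 lay within the FOXO3 KO range. Its log2 fold change was 0.43 (standard error 0.22; FDR = 0.99). With the series as a covariate these 2 genes were the only ones of the 38 with an unadjusted p under 0.05, beside 3.71% of all genes tested (453 genes), and neither was called (fold changes 0.38 and 0.39).

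The other sensors and the transcription factors gave intervals that included changes in either direction. Atf6 was at 10.2 ± 2.05 TPM in WT and at 10.4, 11.2 and 25.3 TPM as the lowest, median and highest in FOXO3 KO, with FOXO3 KO 05 alone above 13.1 TPM (log2 fold change 0.33, standard error 0.23). Ern1 had a fold change of 0.00 (95% interval -0.58 to 0.59). Atf4 had 304, 204, 234, 266 and 223 TPM in WT 1, 2, 3, 03 and 08, and 246, 263 and 298 TPM as the lowest, median and highest in FOXO3 KO. The FOXO3 KO values lay within the WT range, with a fold change of 0.12 (95% interval -0.19 to 0.43). For Xbp1 it was -0.08 (95% interval -0.60 to 0.44; 172 ± 29.6 TPM in WT, 168 ± 50.04 TPM in FOXO3 KO), for Ddit3 0.05 (-0.47 to 0.58; 67.8 ± 18.01 and 71.3 ± 19.6 TPM) and for Atf3 -0.11 (-0.58 to 0.36; 146 ± 19.4 and 139.6 ± 42.4 TPM). The ATF4 targets Asns, Chac1 and Trib3 had fold changes of 0.14, -0.02 and 0.11, with standard errors of 0.36, 0.30 and 0.25.

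In ER-associated degradation and translocation, the fold changes were 0.20 for Derl1, 0.15 for Edem2, 0.14 for Sel1l, 0.07 for Syvn1, 0.01 for Derl2, -0.00 for Os9, -0.01 for Herpud1 and -0.07 for Edem1. Herpud1 was the most tightly measured of these, with 98.4 ± 8.51 TPM in WT and 98.1 ± 14.6 TPM in FOXO3 KO. For Derl3 the fold change was 0.23 with a standard error of 0.67, the widest of the set, since FOXO3 KO libraries ran from 0.837 to 31.5 TPM. Sec61b (-0.03) and Ssr1 (0.10) lay within their standard errors of 0.18 and 0.27. The cochaperones Dnajb9, Dnajb11 and Dnajc3 were at 0.12, 0.08 and 0.02.

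**Figure D2:**
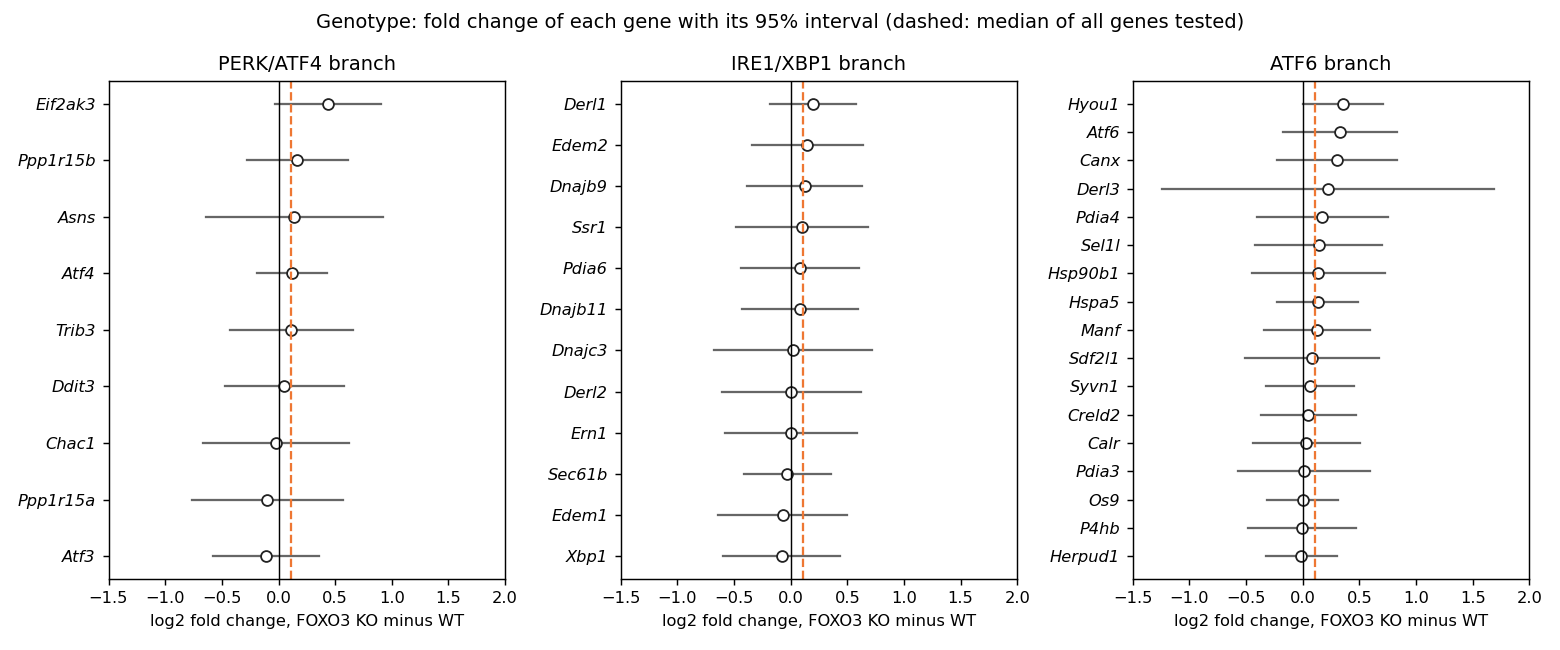
Log2 fold change (FOXO3 KO minus WT, on log2(TPM + 1)) of each gene with its 95% interval from limma, by branch. The dashed line is the median of all 12195 genes tested, 0.11, and every interval includes 0.

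Set side by side, the branches had median log2 fold changes of 0.11 (PERK/ATF4), 0.05 (IRE1/XBP1) and 0.13 (ATF6), or 0.00, -0.06 and 0.01 relative to the median of all genes. Within the first series the medians were -0.18, 0.27 and 0.22 (all genes 0.20), and within the second they were 0.17, -0.08 and 0.03 (all genes 0.04). The order of the branches was thus opposite in the series, as a description with no test. The difference between the series in the genotype effect was called by limma (FDR < 0.05) for 0 of 38 genes, beside 0% of all genes, and had an unadjusted p under 0.05 for 1 of 38, beside 2.08% of all genes (254 genes). That gene was Ppp1r15a, which overlaps the gene Tulp2 on the other strand. It had 193, 248 and 341 TPM in WT and 110.3, 181 and 209 TPM in FOXO3 KO of the first series, and 201 and 289 TPM in WT against 268, 355 and 387 TPM in FOXO3 KO of the second. FOXO3 KO was thus the lower group in the one and the higher in the other, with overlap in both, and the difference of the log2 fold changes was 1.11 (standard error 0.45; FDR = 1.00).

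The branches were also described by the mean log2(TPM + 1) of their genes in each library. The PERK/ATF4 mean was 4.73 to 5.04 in WT and 4.67 to 5.33 in FOXO3 KO, and the IRE1/XBP1 mean 5.21 to 6.09 and 5.49 to 6.26. The ATF6 mean was 6.26 to 6.80 and 6.40 to 6.93. The genotypes overlapped in all. The PERK/ATF4 mean minus the IRE1/XBP1 mean was lowest in FOXO3 KO 1 (-1.59) and highest in FOXO3 KO 05 (-0.16), so the extremes of the balance between these branches were both FOXO3 KO libraries. It was -1.59 to -0.81 in the first series and -0.64 to -0.16 in the second apart from WT 03, at -1.16.

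**Figure D3:**
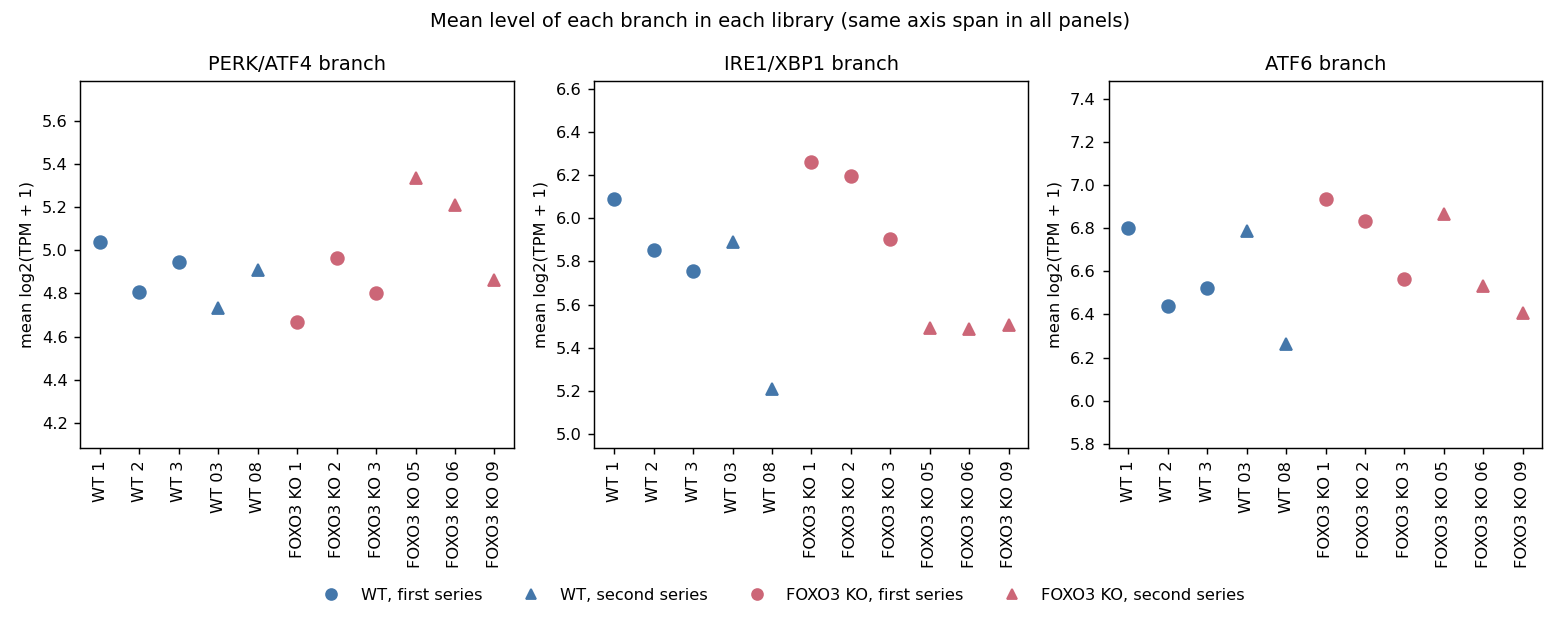
Mean log2(TPM + 1) of the genes of each branch in each library, with the same axis span in each panel. The FOXO3 KO libraries of the second series sit near 5.49 to 5.51 in the IRE1/XBP1 panel, below all 3 of the first series, at 5.90 to 6.26, while 2 of them have the highest PERK/ATF4 means, 5.21 and 5.33.

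The numbering series separated more of these genes than the genotype did. With genotype in the model, 7 of 38 genes were called between the series (limma, FDR < 0.05 and over 0.5 in size). Higher in the second series was 1 gene, Derl3 (2.63% of the 38, beside 8.26% of all genes tested), and lower were 6, Dnajc3, Edem1, Ssr1, Sel1l, Ern1 and Dnajb9 (15.8%, beside 11.7% of all genes). Of the 6, 5 belonged to the IRE1/XBP1 branch (5 of 12 genes) and 1 to the ATF6 branch (1 of 17), and none to the PERK/ATF4 branch (0 of 9). All 12 genes of the IRE1/XBP1 branch had a lower estimate in the second series, whereas 7 of the 9 PERK/ATF4 genes had a higher one, beside 7563 lower and 4632 higher of all genes tested. After quantile normalization these counts were 11 of 12 and 7 of 9, beside 6623 lower and 5572 higher. Both series hold both genotypes, and whether handling, date or sequencing separates them is not given in the sources used here.

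Edem1 (chr6:108828641-108859356, plus strand) and Sel1l (chr12:91806043-91849157, minus strand) were the genes without overlap between the series in the lower direction (2 of 38, or 5.26%, beside 6.86% of all genes). Edem1 had 141, 146 and 132 TPM in WT and 146, 181 and 148 TPM in FOXO3 KO of the first series, then 113 and 85.8 TPM in WT and 64.5, 90.8 and 104 TPM in FOXO3 KO of the second. Every library of the second series lay below every library of the first, in both genotypes, and the log2 difference was -0.71 (standard error 0.16; limma FDR = 0.011). Sel1l had 36.0, 32.9 and 38.3 TPM in WT and 44.3, 50.4 and 52.6 TPM in FOXO3 KO of the first series, and 32.2 and 21.7 TPM in WT and 23.1, 23.9 and 28.2 TPM in FOXO3 KO of the second. WT 03 lay just under WT 2, the lowest of the first series, and the log2 difference was -0.71 (standard error 0.16; FDR = 0.0097). Both genes work at the entry of the degradation path, Edem1 on the glycans of misfolded proteins and Sel1l beside the ligase Syvn1, which itself was at 25.7 ± 2.01 TPM in the first and 31.0 ± 7.19 TPM in the second series and did not pass (log2 difference 0.23, FDR = 0.35).

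The other genes that were lower overlapped between the series, mostly through WT 03. Ssr1 was at 45.8 ± 7.61 TPM in the first and 28.3 ± 6.48 TPM in the second series (log2 difference -0.71, FDR = 0.015), and WT 03, at 37.7 TPM, lay above WT 3 only. Dnajc3 was at 26.0 ± 5.01 and 14.7 ± 5.16 TPM (-0.83, FDR = 0.021), with WT 03 at 22.8 TPM among the first series. Ern1, the sensor of this branch, was at 5.80 ± 0.83 and 3.41 ± 1.18 TPM (-0.66, FDR = 0.031), with WT 03 at 5.35 TPM and the other 4 at 2.46 to 3.64 TPM. For Dnajb9, at 57.4 ± 8.45 and 38.9 ± 8.50 TPM (-0.58, FDR = 0.028), FOXO3 KO 1 of the first series, at 43.8 TPM, lay within the range of the second. Xbp1, downstream of Ern1, was at 189 ± 17.5 and 147 ± 49.6 TPM and did not pass (-0.41, FDR = 0.18).

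Derl3 (chr10:75893413-75895941, plus strand) was the gene without overlap in the higher direction (1 of 38, or 2.63%, beside 6.15% of all genes). It had 3.59, 1.23 and 4.09 TPM in WT and 2.97, 0.837 and 1.37 TPM in FOXO3 KO of the first series, against 5.43 and 8.39 TPM in WT and 31.5, 11.9 and 4.58 TPM in FOXO3 KO of the second. The lowest of the second series was only just above the highest of the first, and FOXO3 KO 05 stood far above the rest (log2 difference 1.78, standard error 0.45; FDR = 0.018). In the PERK/ATF4 branch the largest differences were 0.55 for Ppp1r15a, 0.47 for Eif2ak3 and 0.45 for Ddit3, none of which was called (FDR = 0.17, 0.069 and 0.15), and Ppp1r15b, at -0.44, went the other way (FDR = 0.071). Branch medians of the difference were 0.25 (PERK/ATF4), -0.49 (IRE1/XBP1) and -0.27 (ATF6), beside -0.15 for all genes.

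**Figure D4:**
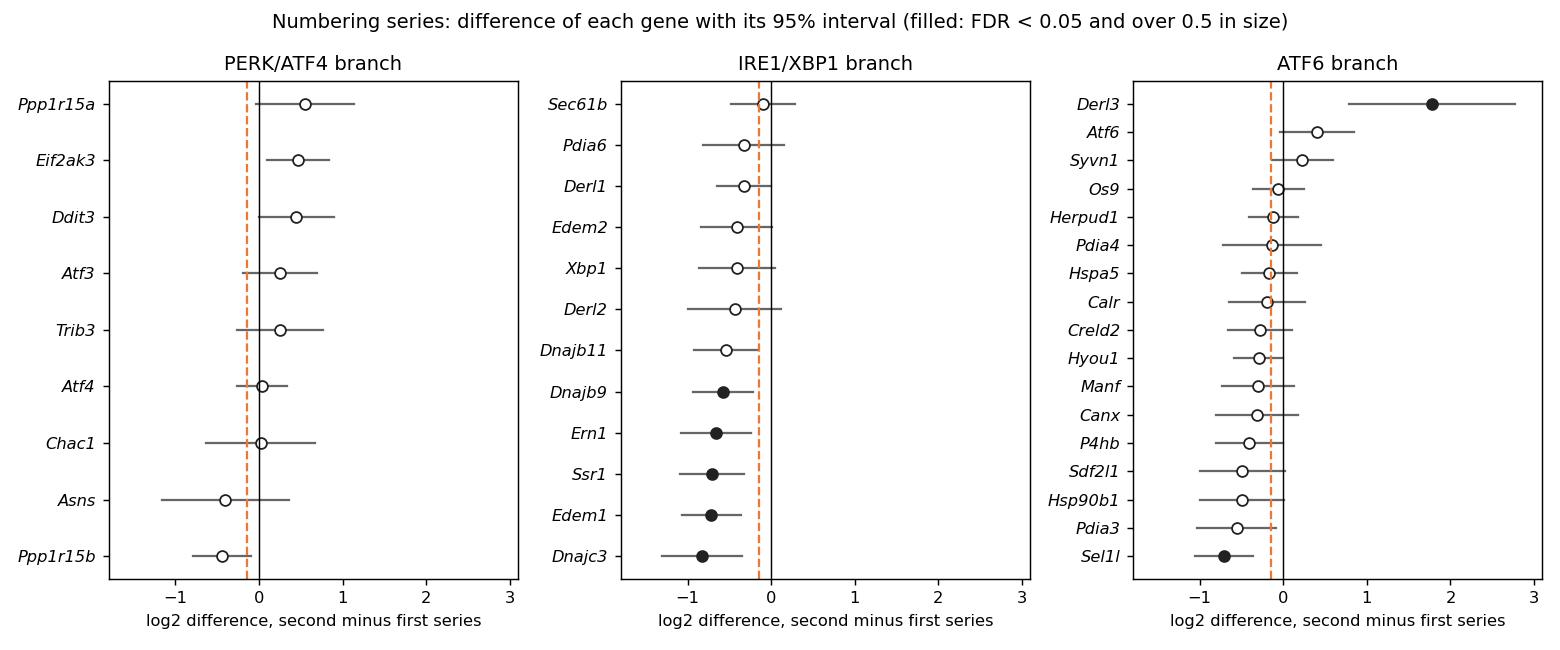
Log2 difference (second minus first series, with genotype in the model) of each gene with its 95% interval from limma, by branch, with called genes filled. The dashed line is the median of all genes tested, -0.15. Of the 7 filled genes 5 are in the IRE1/XBP1 panel, and Derl3, at 1.78, is the filled gene on the right.

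Markers of other cells moved with the series. The counts of called markers stand beside 8.26% higher and 11.7% lower of all genes tested. All 12 B cell markers were called higher in the second series, and their sum was 74.9 to 557 TPM in the first and 1283 to 5596 TPM in the second. Of the plasma cell markers 4 of 7 tested were higher (sum 109.3 to 1110.1 and 1124 to 5213 TPM), among them Igkc and Iglc1. Igkc alone averaged 358 TPM in the first and 2495 TPM in the second series, of sums that averaged 407 and 2677 TPM. Jchain, Sdc1 and Prdm1 did not pass. Sdc1 had a lower estimate in the second series (log2 difference -0.90, limma FDR = 0.11), and Jchain and Prdm1 had higher ones (1.33 and 0.12). FOXO3 KO 05, the library with the highest Derl3, also had the highest B cell sum (5596 TPM) and plasma cell sum (5213 TPM). It had the highest mast cell and basophil sum as well, 545 TPM, against at most 191.5 TPM in every other library. Of the macrophage markers 5 of 11 were lower (sum 3335 to 5026 and 1598 to 5954 TPM, with WT 03 highest). Lyz2, which did not pass, averaged 2489 and 1872 TPM of these sums, which averaged 3898 and 2914 TPM. Of 15 intestinal epithelial markers 8 were tested. Of these, 7 were higher (sum of the list 3.73 to 6.45 and 31.1 to 50.7 TPM), while Cdh1 had a lower estimate (log2 difference -0.52, limma FDR = 0.075). Tff3 and Agr2 were at 0 in the first series, and Epcam, Krt8, Krt19 and Muc2 averaged 0.042 to 0.54 TPM there. With a minimum mean of 1 TPM, these genes were tested only through the second series, so the filter favoured higher calls. The same holds for Cr2, Ebf1 and Igha. Mast cell and basophil markers gave 2 higher of 7 tested, with 5 at an unadjusted p under 0.05 (limma), all with higher estimates. Their sum was 25.6 to 168 TPM in the first and 149 to 545 TPM in the second series. Eosinophil markers gave 0 called of 6 tested. Of these eosinophil markers, 4 had an unadjusted p under 0.05 (limma), namely Siglecf, Ccr3, Ear2 and Ear6, all with lower estimates in the second series. The eosinophil sum averaged 91.0 TPM in the first and 41.5 TPM in the second series, with overlap between the libraries. No B cell marker was at 0 throughout a series. The plasma cell marker Tnfrsf17 was near absent, at 0 in the first series and in all FOXO3 KO libraries, and at most 0.064 TPM in the second series. The sum of the 12 neutrophil markers overlapped, at 114280 to 246274 and 132037 to 269288 TPM, and 1 of 12, Csf3r, was lower in the second series (533 ± 152 and 297 ± 75.7 TPM, log2 difference -0.81, FDR = 0.024). Between the genotypes no marker was called, beside 0% of all genes tested. Median log2 fold changes (FOXO3 KO minus WT) were -0.34 (neutrophil), -0.40 (eosinophil), -0.26 (macrophage) and 0.55 (B cell). They were 0.43 (mast cell and basophil), 0.12 (plasma cell) and 0.26 (intestinal epithelial), beside 0.11 for all genes. The part of these cells in the differences of the 7 genes, or in the genotype fold changes of the 38, was not tested.

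**Figure D5:**
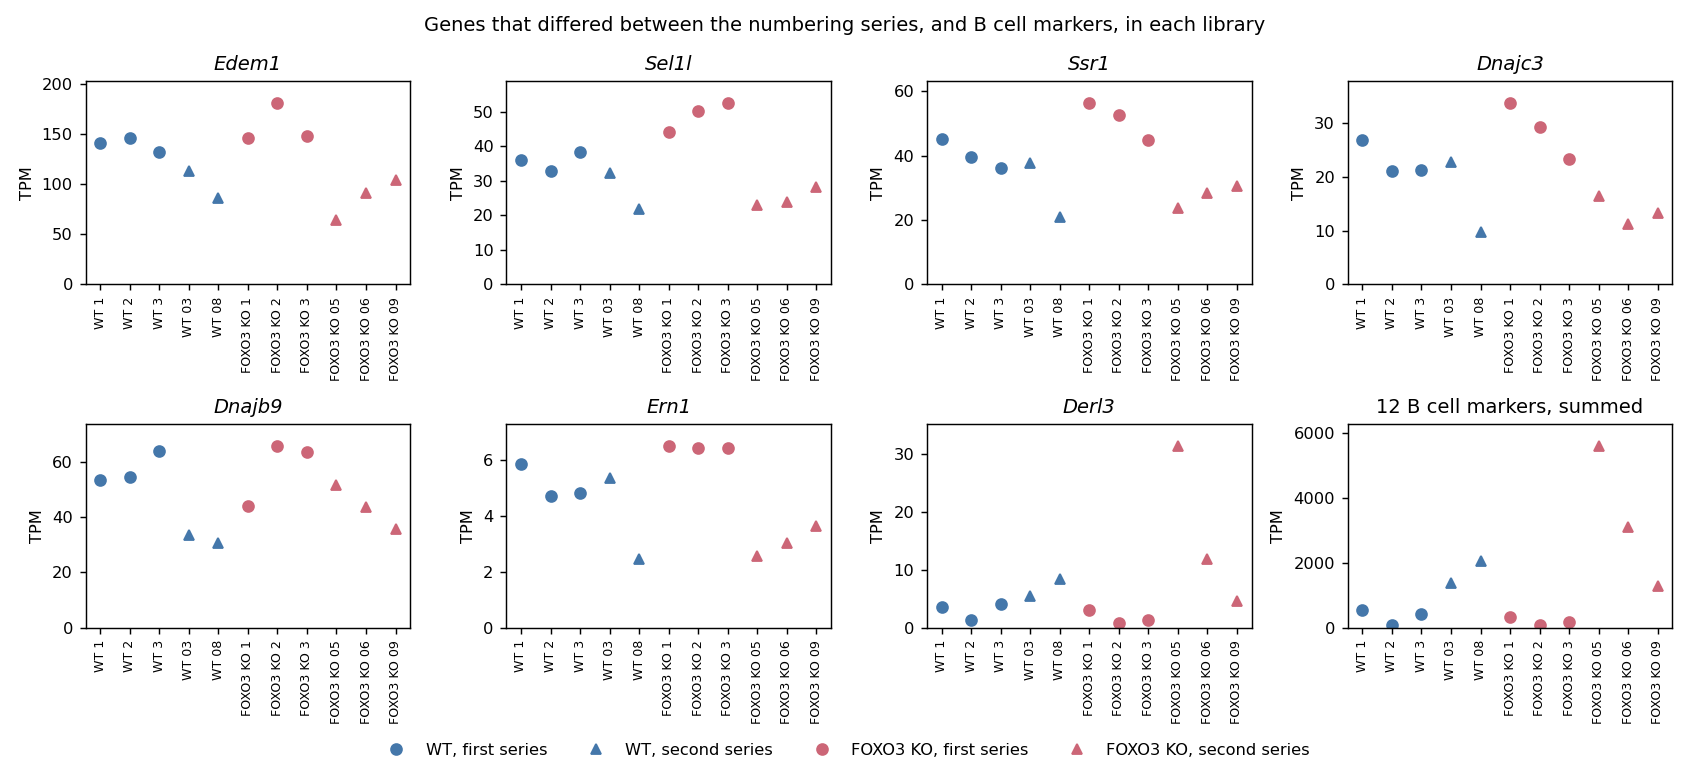
TPM of the 7 genes called between the series, and the summed TPM of 12 B cell markers, in each library on axes that start at 0. For Edem1 and Sel1l every triangle (second series) lies below every circle (first series), and Derl3 and the B cell sum are both highest in FOXO3 KO 05, at 31.5 and 5596 TPM.

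The differences between the series rested on several libraries. The count of 7 became 15 without WT 03, 3 without WT 08 and 3 without FOXO3 KO 2, while the count over all 12195 genes went from 2436 to 3642, 1500 and 1527. It was 4 among FOXO3 KO libraries alone and 0 among WT libraries alone (limma, with 1 of 38 at an unadjusted p under 0.05 and a log2 difference over 0.5), beside 1325 and 143 of all genes. Edem1 and Sel1l were called whichever library was left out, Derl3 and Ssr1 in 10 of 11 such fits, Dnajc3 in 8, Dnajb9 in 5 and Ern1 in 4. After quantile normalization 7 genes were again called, 2 higher and 5 lower in place of 1 and 6, with Eif2ak3 gained and Dnajb9 lost, and all genes split into 1393 higher and 1251 lower in place of 1007 and 1429.

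Further genes of the same pathways were read from lists of genes outside the 38, and none was called between the genotypes (limma, with Mbtps1 the only one at an unadjusted p under 0.05). Of 26 other genes of the PERK/ATF4 branch and the integrated stress response, Slc7a1 (an amino acid transporter) had the smallest p, at 4.92 ± 1.42 TPM in WT and 7.12 ± 2.01 TPM in FOXO3 KO (log2 fold change 0.46, FDR = 0.99), and the median of the list was 0.16. Of 22 other IRE1/XBP1 and translocation genes, Rtcb, the ligase that joins the cut Xbp1 mRNA, was at 27.5 ± 11.3 and 39.5 ± 17.9 TPM (0.48, FDR = 0.99), with a list median of 0.12. Of 9 other genes around ATF6, Mbtps1, the Golgi protease that makes the initial cut in ATF6, was at 9.93 ± 3.45 and 13.6 ± 1.72 TPM (0.47, FDR = 0.99), with a list median of 0.14. Lists of 27 other folding and glycosylation genes and of 19 other ER-associated degradation genes had medians of 0.10 and 0.09, and all these medians stand beside 0.11 for all genes.

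Between the series, the other IRE1/XBP1 and translocation genes gave 1 higher and 4 lower of 22, beside 8.26% higher and 11.7% lower of all genes tested, the background for each list named here. The higher gene was Rtcb, at 25.1 ± 8.96 TPM in the first and 44.8 ± 16.2 TPM in the second series (log2 difference 0.77, limma FDR = 0.045). Ssr3, of the same complex as Ssr1, was at 167 ± 32.9 TPM in the first and 93.1 ± 31.5 TPM in the second series (log2 difference -0.88, FDR = 0.016), and Tram1, a translocation protein, fell from 54.2 ± 13.4 to 29.7 ± 10.2 TPM (-0.88, FDR = 0.020). Edem3, a mannosidase related to Edem1, was at 8.33 ± 2.15 and 4.72 ± 1.30 TPM (-0.73, FDR = 0.027). The folding and glycosylation list gave 1 higher (Ero1lb, an ER oxidase, 1.01, FDR = 0.026) and 6 lower of 27, such as Hspa13 (-1.08, FDR = 0.0029) and Tmx3 (-1.06, FDR = 0.0014). The degradation list gave 2 lower of 19 (Erlin2 and Ube2j2), and the list around ATF6 0 of 9 (limma, with 1 of 9 at an unadjusted p under 0.05, Nfyb).

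In the integrated stress response list 3 genes were higher and 2 lower of 26, beside 8.26% and 11.7% of all genes. Phgdh and Shmt2, enzymes of serine and one-carbon metabolism, differed by 2.64 and 1.83 (FDR = 0.000825 and 0.0017), and Ddit4, an inhibitor of mTORC1, rose from 19.0 ± 4.04 to 50.3 ± 14.0 TPM (1.37, FDR = 0.0012), while Gpt2 was lower (-1.12, FDR = 0.0011). The heat shock list, the cytosolic counterpart of the ER response with the mitochondrial chaperones Hspd1 and Hspe1 added, gave 3 higher of 14. These were Hspa1a and Hspa1b (the inducible HSP70 genes, 2.36 and 2.85) and Dnajb1 (1.20), with FDR = 0.016, 0.0064 and 0.0045. The summed level of the list was 5315 TPM in FOXO3 KO 05 and at most 3067 TPM in every other library. FOXO3 KO 05 thus had the highest heat shock sum as well as the highest Atf6, Eif2ak3 and Derl3. Hspa1a and Hspa1b are near-identical copies, between which reads may be split.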

How the data were processed

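The deposited table gives 1 TPM column for each of 11 libraries, quantified by the authors, and 0 value columns could not be mapped. Columns of the second series name a genotype but no labelled mouse. The study gives 5 to 6 mice per group for the RNA, which fits 1 library per mouse, although the labels do not name the mice, and p-values measure the spread between these libraries. The authors also deposited their own comparison of the genotypes, which was not used here: a signal that averages normalized counts over the libraries, a log2 fold change with its error, a score and p-values. Tools in the submitters' processing notes are kallisto 0.46.0, STAR 2.6.1d and DESeq2, with the builds mm10 and hg38 and without roles, and the annotation and the use of strand are not given in the sources used here.

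Log2(TPM + 1) was fitted for the 12195 genes whose mean reached 1 TPM with limma 3.58.1 in R 4.3.3 (mean-variance trend, Benjamini-Hochberg adjustment over all genes tested), with genotype alone, or with genotype and series. Calls needed FDR < 0.05, as in the study, and a log2 difference over 0.5 in size. The study gives its threshold as a fold change of 0.5, which was read here as log2. The fit was tested on simulated data. For the genotype these held no difference between the series, unlike the real libraries. That test therefore cannot show what size of genotype change could be called here. Branch medians have no test. Tables and plots were made with Python 3.11.15, pandas 2.3.3 and matplotlib 3.10.9. All 38 genes are reported, and up to 4 genes of each further pathway list with the smallest p in either comparison could be named. The genes, branches and lists were chosen with earlier results of these data known. Some genes of the lists were not analysed here. Gene positions (GRCm38, counted from 1) follow GENCODE M21. Pdia3, Pdia6, Manf, Ppp1r15a, Syvn1 and Derl2 overlap another protein-coding gene.

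Alternatives were quantile normalization, other filters and a pseudocount of 0.1, sample weights, Xist level or series as a covariate, each series or genotype alone, core members only, each library left out, and a replicate block. For the block, columns 1 to 3 of both genotypes were paired and the other 5 formed 1 block. Deviations from the group means correlated between libraries of equal number (0.55, 0.60 and 0.48 across genes, and 0.51, 0.17 and 0.41 within the first series), and the pairing comes from the numbers in the headers only.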

Additional observations from a re-analysis of the deposited data

Results flagged for a closer look

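The 38 genes, Foxo3 and the 3 branch means were screened within each genotype for a library far from the others, by Dixon's test. Of these 84 sets of libraries, 3 stood out, all on the high side, where chance at 1 in 20 would give 4.2. Ddit3 was at 98.9 TPM in WT 08, and the next WT library was at 64.5 TPM. Atf6 was at 25.3 TPM in FOXO3 KO 05, and the next FOXO3 KO library was at 12.9 TPM. Derl3 was at 31.5 TPM in FOXO3 KO 05, followed by 11.9 TPM in FOXO3 KO 06.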

How the results depend on the processing

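For the genotype, 0 of 38 genes were called under every alternative run, with a replicate block included, under which the branch medians were 0.09 (PERK/ATF4), 0.11 (IRE1/XBP1) and 0.13 (ATF6); the pairing changed no call. Leaving out each library in turn gave genotype medians of 0.01 to 0.20 (PERK/ATF4), -0.08 to 0.16 (IRE1/XBP1) and 0.01 to 0.20 (ATF6), and the PERK/ATF4 median was -0.18 in the first series alone. Between the series, the PERK/ATF4 median of 0.25 became 0.47 among FOXO3 KO libraries, -0.072 among WT libraries and 0.041 with core members only. Without each library in turn it was 0.10 to 0.29, with -0.63 to -0.43 for IRE1/XBP1 and -0.40 to -0.19 for ATF6. The count of 7 genes called (2436 of all 12195 genes) became 14 with sample weights (4413), 4 among FOXO3 KO (1325) and 0 among WT libraries (143; limma, with 1 of 38 at an unadjusted p under 0.05 and a log2 difference over 0.5), and 3 to 15 without 1 library, the extremes being without WT 08 or FOXO3 KO 2 (3) and without WT 03 (15). The smaller subsets hold fewer libraries; otherwise the cause was not tested. For single genes, 1429 values kept their side of the threshold, 29 lost it and 18 gained it. All losses and gains were between the series, since no genotype fit called a gene of the set. A reversal needed a change of sign with a call in either fit, or with both differences larger than their standard errors, and none was found. Smaller changes of sign, such as that of the Ppp1r15a genotype difference in the second series alone, counted as kept. Depth is unknown, so counting error cannot be set against the spread between libraries.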
